A study of Danio rerio with 6 samples.

Results

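Zebrafish leukocyte genes were followed in the trunks of embryos that had lost qkia and qkic, RNA-binding Quaking genes that act on the splicing, stability and translation of other transcripts. The set held 9 genes, listed by name as genes of neutrophils, macrophages or leukocytes in general, out of 24789 genes in the tables. Of the 9, 7 were matched to a row by symbol, with case ignored, or by gene ID. They were lyz (ENSDARG00000057789), mmp13a (ENSDARG00000012395), mmp9 (listed as MMP9, ENSDARG00000042816), coro1a (listed as CORO1A, ENSDARG00000054610), rac2 (ENSDARG00000038010), cebpa (listed as CEBPA, ENSDARG00000036074) and a CXCR4 gene (ENSDARG00000057633). The genes lcp1 and mpx could not be matched to a row and are not analysed here.

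Both groups came from crosses of qkia+/- fish, were injected with 0.6 pmol of morpholino as single-cell embryos, and were collected 24 to 26 h after fertilization (hpf). The 3 loss of function libraries came from embryos that were qkia-/- and had received the qkic morpholino. The 3 control libraries came from siblings that were qkia+/+ or qkia+/- and had received a control morpholino. A morpholino is an antisense oligonucleotide that blocks a chosen transcript. Genotype and morpholino therefore changed together, and the groups were told apart by morphology, per the labels. Head and yolk were cut away, and poly(A) RNA of the remaining trunk was sequenced without keeping the strand. The number of embryos behind a library is not given in the labels, so the spread that p-values rest on is that of these 6 libraries, and may be technical.

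In the zebrafish embryo the first macrophages and neutrophils arise from lateral mesoderm, and many of them spread over the yolk and through the head, tissues that were removed here. Neutrophils carry lysozyme, peroxidase and metalloproteinases in granules, and macrophages are known by genes such as mpeg1, mfap4 and csf1ra. General leukocyte genes encode parts of the actin and signalling machinery that moves these cells. In whole-trunk RNA, fewer cells of a type and less RNA per cell cannot be told apart.

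Values are normalized read counts, that is reads per gene divided by a size factor of the library. The libraries held between 38804265 and 44799398 reads counted to genes. The mutated gene qkia (ENSDARG00000097478) had 6, 7 and 3 reads in loss of function libraries and 70, 83 and 58 reads in controls. Of 18917 genes tested with limma, 21.9% rose and 20.0% fell in loss of function trunks at an adjusted p under 0.05, together 41.9%. The values of the groups did not overlap for 52.1% of the genes tested. Of the 7 leukocyte genes, 4 fell, 3 rose and 7 did not overlap between groups. The median log2 change was -0.66 over the 7 and 0.00 over all genes tested, and 1 of the 7, mmp13a, passed the filter on low values only through its controls. When each library was scaled to the same total instead, the median of all genes shifted to -0.14, 11.3% of genes rose and 32.9% fell.

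**Figure D1:**
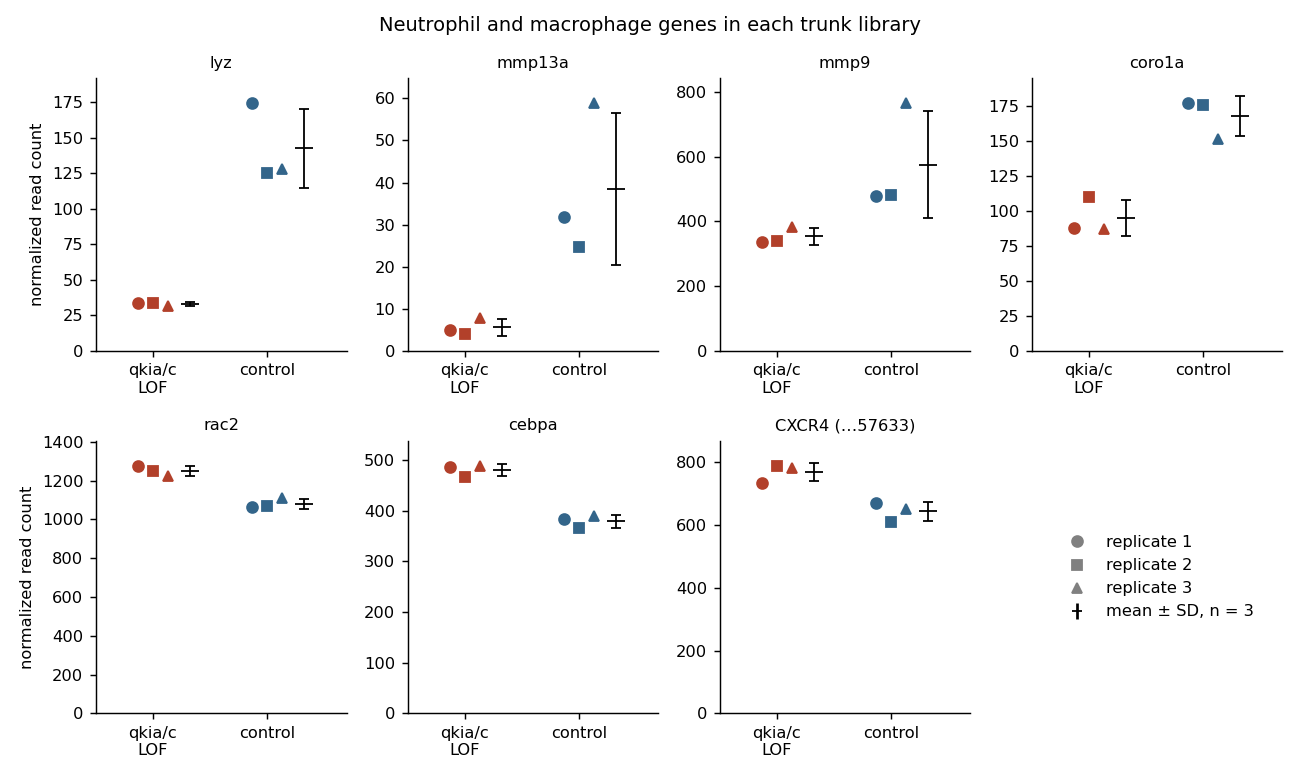
Normalized read count (linear axis from 0) of the 7 leukocyte genes in each of the 3 qkia/c loss of function (LOF) and 3 control trunk libraries, with marker shape giving the replicate number and the bar the mean ± SD. The genes lyz, mmp13a, mmp9 and coro1a sit lower in loss of function, rac2, cebpa and CXCR4 sit slightly higher, and no panel has overlapping groups.

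The lysozyme gene lyz, which encodes an antibacterial granule enzyme and marks zebrafish neutrophils and some early macrophages, had 33.9, 33.7 and 31.2 normalized counts in loss of function libraries, against 175, 125 and 128 in controls. The loss of function libraries lay close together, and the highest of them was far below the lowest control. Mean levels were 32.9 ± 1.49 in loss of function and 143 ± 27.7 in controls (SD, n = 3 each), which was 4.33-fold lower. The log2 change was -2.07 (SE 0.17, 95% interval -2.43 to -1.70), with a limma adjusted p = 1.24e-07. A change this low or lower was found for 0.0899% of the genes tested. It ranged between -2.20 and -1.91 over the other settings tried.

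The collagenase gene mmp13a, a matrix protease of neutrophils and early macrophages, had 4.99, 3.96 and 7.80 normalized counts in loss of function libraries, against 31.7, 24.7 and 58.9 in controls. These stood for only 5, 4 and 7 reads in loss of function and 36, 25 and 58 reads in controls. Every loss of function value was under every control, but the controls differed among themselves more than 2-fold and control replicate 3 was the highest. Means were 5.58 ± 1.99 in loss of function and 38.4 ± 18.1 in controls (SD, n = 3 each), 6.88-fold lower. The log2 change was -2.53 (SE 0.36, limma adjusted p = 3.59e-05), and it was -2.18 without control replicate 3.

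The gelatinase gene mmp9, carried by neutrophils and also made by injured fin epithelium, had 337, 341 and 384 normalized counts in loss of function libraries, against 477, 482 and 765 in controls. Control replicate 3 again stood above the other two controls, as it did for mmp13a, while the loss of function values were close together. Means were 354 ± 25.9 in loss of function and 575 ± 165 in controls (SD, n = 3 each), 1.62-fold lower, and the log2 change was -0.66 with an SE of 0.13 (limma adjusted p = 0.000766). Without control replicate 3 the log2 change was -0.44 (limma adjusted p = 0.000414). Within a library, log2 mmp13a minus log2 mmp9 was -5.79 ± 0.33 in loss of function and -3.93 ± 0.28 in controls (SD, n = 3 each). The difference of -1.87 had an exact two-sided permutation p of 0.1, which is the smallest that 3 against 3 libraries can give, and 0.1 after adjustment over the 6 pairs compared.

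Other neutrophil genes were read from a list of 11, of which 8 were matched, to 9 gene IDs. Of the 8 IDs tested, 4 were lower (lyz, mmp13a, mmp9 and npsn), 1 was higher (nccrp1) and 3 did not pass. Over all genes tested 20.0% were lower and 21.9% higher. The median log2 change of the list was -0.75, against 0.00 over all genes tested. Of the 4 that were lower, mmp13a entered the test only through its controls. Without the members already described, 5 remained, of which 1 was lower, 1 was higher and 3 did not pass. Their median of 0.21 was the change of srgn alone. The log2 changes spread from -0.92 to 0.40, so this median shows no common direction. Both genes named LECT2 missed the threshold. ENSDARG00000033227 (-0.84, limma adjusted p = 0.150) had 5, 13 and 3 reads in loss of function and 15, 15 and 8 in controls. ENSDARG00000090889 (0.40, limma adjusted p = 0.394) had 10, 15 and 18 reads in loss of function and 9, 11 and 14 in controls. The neutrophil protease gene npsn had 97.7, 93.1 and 97.0 normalized counts in loss of function libraries and 192, 185 and 173 in controls. Its groups lay well apart with little spread in either, and its log2 change was -0.92 (SE 0.12, limma adjusted p = 1.23e-05). The gene nccrp1, whose product was described as a receptor of cytotoxic cells in fish, rose to 913 ± 19.7 in loss of function, against 743 ± 9.97 in controls (SD, n = 3 each; log2 change 0.30, limma adjusted p = 7.33e-04). The granule proteoglycan gene srgn had 202, 198 and 188 in loss of function and 181, 153 and 175 in controls. Its log2 change of 0.21 (95% interval -0.01 to 0.44) missed the threshold (limma adjusted p = 0.125). The receptor gene CSF3R, for the growth factor of granulocytes, had between 2 and 4 reads in loss of function libraries and between 3 and 5 in controls, under the filter.

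Log2 lyz minus log2 npsn was -1.52 ± 0.08 in loss of function and -0.37 ± 0.21 in controls (SD, n = 3 each), a difference of -1.14 (exact two-sided permutation p = 0.1, adjusted p = 0.1). This pair and all those with lyz or the C/EBP and CXCR4 genes were added after the values had been seen. The summed normalized count of the neutrophil list was 1613 to 1627 in loss of function libraries and 1745 to 2075 in controls. Most of that sum came from nccrp1 and mmp9.

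**Figure D2:**
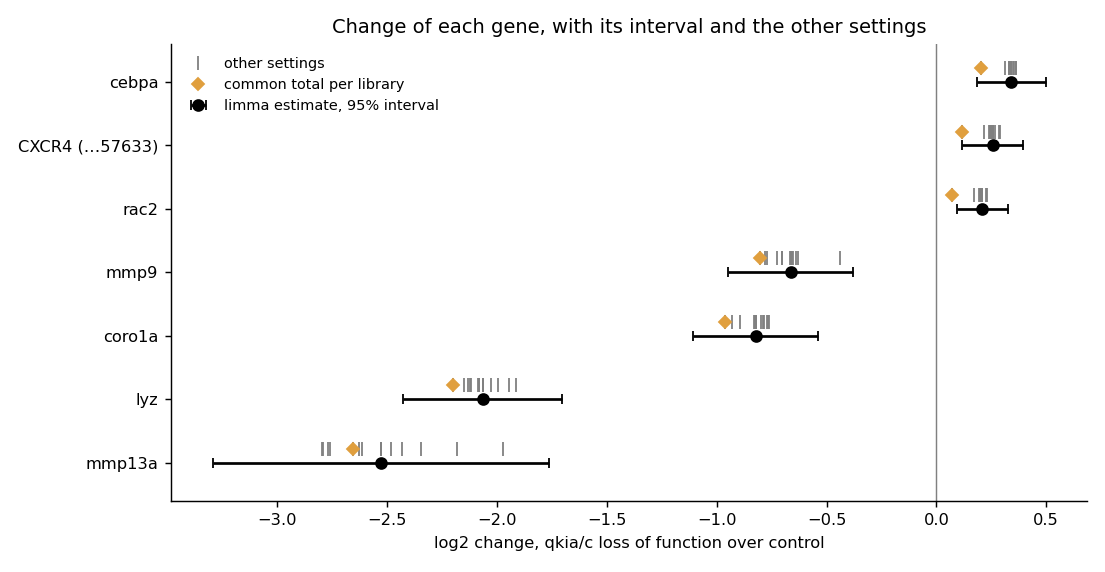
Log2 change (loss of function over control) of the 7 leukocyte genes, with the limma estimate and its 95% interval in black, the estimate under each other setting as a grey tick, and the estimate after scaling to a common total as a diamond. The 4 genes that fell stay below 0 under all of them, from -2.53 for mmp13a to -0.66 for mmp9 in the limma estimate, whereas the diamonds of rac2 (0.070) and CXCR4 (0.12) come close to 0.

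The actin-binding gene coro1a, whose product coronin 1A is found throughout the leukocyte lineages, had 87.8, 109.9 and 87.0 normalized counts in loss of function libraries, against 177, 176 and 151 in controls. The lowest control was above the highest loss of function library. Means were 94.9 ± 13.0 in loss of function and 168 ± 14.6 in controls (SD, n = 3 each), 1.77-fold lower, with a log2 change of -0.82 (SE 0.13, 95% interval -1.11 to -0.54, limma adjusted p = 0.000126). Log2 lyz minus log2 coro1a was -1.49 ± 0.17 in loss of function and -0.25 ± 0.23 in controls (SD, n = 3 each). The difference of -1.24 had an exact two-sided permutation p of 0.1 (adjusted p = 0.1).

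The gene rac2, which encodes a small GTPase that steers actin and the oxidative burst in blood cells, had 1276, 1250.3 and 1222 normalized counts in loss of function libraries. In controls it had 1063, 1069.6 and 1110.3. The groups did not overlap but lay close, at 1249.5 ± 27.2 in loss of function and 1081 ± 25.6 in controls (SD, n = 3 each), 1.16-fold higher. The log2 change of 0.21 (SE 0.06) passed the test (limma adjusted p = 0.00603), but not after scaling to a common total, where it was 0.070 (limma adjusted p = 0.285). Relative to the median of all genes the change was 0.21 under both scalings. Log2 coro1a minus log2 rac2 was -3.71 ± 0.19 in loss of function and -2.68 ± 0.16 in controls (SD, n = 3 each), a difference of -1.03 (exact two-sided permutation p = 0.1, adjusted p = 0.1).

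Of 17 general leukocyte genes tested, 6 were higher, 2 were lower and 9 did not pass, with a median log2 change of 0.01. After scaling to a common total 4 were higher and 3 lower. The shares over all genes tested were 21.9% higher and 20.0% lower, or 11.3% and 32.9% with a common total. The transcription factor gene IKZF1, needed for lymphocytes, rose to 181 ± 21.3 in loss of function, against 60.2 ± 15.5 in controls (SD, n = 3 each; log2 change 1.60, limma adjusted p = 2.74e-06). The kinase gene BTK rose to 161 ± 1.85, against 79.2 ± 17.4 in controls (1.03, limma adjusted p = 6.01e-05). One of the genes named ARHGAP45 (ENSDARG00000062049, 0.91) and the adaptor gene GRAP2 (0.65) also rose, both named after their values were seen. For GRAP2 the adjusted p was 0.0528 after scaling to a common total, 0.0664 without control replicate 2, 0.0619 without loss of function replicate 1 and 0.0556 without loss of function replicate 3. Besides coro1a, the kinase gene SYK fell (-0.95, limma adjusted p = 0.0460). It reached the filter value of 10 in 1 loss of function library and 3 controls, so its controls alone met the filter. It had 11, 5 and 8 reads in loss of function and 23, 13 and 16 in controls, and lost its call without control replicate 1 (0.164), control replicate 3 (0.0771), loss of function replicate 2 (0.191) or loss of function replicate 3 (0.0660). The common leukocyte antigen gene ptprc had 23.9, 16.8 and 27.9 in loss of function and 37.0, 30.6 and 34.5 in controls. Its change of -0.58 (95% interval -1.10 to -0.05) did not pass (limma adjusted p = 0.0729), and passed after scaling to a common total (0.0325).

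Erythroid genes moved in the same libraries. Of 13 tested, 12 rose and 1, SLC4A1 (ENSDARG00000024560), fell, with a median log2 change of 2.30. Of all genes tested, 21.9% rose and 20.0% fell. A more abundant SLC4A1, ENSDARG00000012881, was among those that rose (log2 change 2.53, limma adjusted p = 3.61e-08). Its means were 5099 ± 99.3 in loss of function and 938 ± 383 in controls (SD, n = 3 each). Others that rose were the zinc finger gene blf (1.38), hemgn (2.30) and the globin gene hbae4 (2.59). For the SLC4A1 that fell (ENSDARG00000024560) the adjusted p was 0.0606 without loss of function replicate 3. The summed normalized count of the erythroid list was 89947, 87309 and 87782 in loss of function libraries and 19594, 10424 and 29797 in controls. Control replicate 2 had the lowest erythroid sum, and it also had the lowest control values of IKZF1 (42.4), BTK (59.2) and GRAP2 (33.5). The same control was also the lowest for genes of other kinds, such as krt4 (608754), MMP2 (2953), cebpa (365) and lyz (125). Its low values are therefore not particular to erythroid genes. The lowest control was replicate 1 for ARHGAP45 (ENSDARG00000062049, 32.6) and for rac2 (1063). The part of erythroid cells in the values of these leukocyte genes was not tested.

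Genes of macrophages had low counts in both groups. Among all genes tested 20.0% fell and 21.9% rose. Of 11 gene IDs tested in the macrophage list, 3 fell and 8 did not pass, 0 rose, and the median log2 change was 0.08. The count of 0 was made with limma, with 0 higher also at an unadjusted p under 0.05, with edgeR and with DESeq2. Without the intensity trend limma called 2 higher, the transporter gene SLC7A7 (0.28, adjusted p = 0.0335) and a copy of MFAP4. A further 8 IDs of the list were under the filter. The name MFAP4, whose zebrafish product is secreted by macrophages, was shared by 6 gene IDs. Of these, ENSDARG00000090783 fell to 23.5 ± 3.50 normalized counts in loss of function, against 51.8 ± 12.2 in controls (SD, n = 3 each; log2 change -1.09, limma adjusted p = 0.00132). ENSDARG00000088745 fell to 33.4 ± 2.39, against 55.6 ± 14.5 in controls (-0.69, limma adjusted p = 0.0154). The adjusted p of the second was 0.0953 without control replicate 2 and 0.0568 without loss of function replicate 1. Another copy, ENSDARG00000090557, had 17.8 ± 2.73 in loss of function and 12.1 ± 1.19 in controls (0.52), which did not pass (limma adjusted p = 0.178), and passed without the intensity trend (0.0257). How the counting treated reads that fit several of these like-named copies is not known, so each copy has an uncertain value of its own.

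The scavenger receptor gene havcr1 fell as well (-1.33, limma adjusted p = 0.0230), on 12, 3 and 4 reads in loss of function and 25, 12 and 14 in controls. It reached the filter value of 10 in 1 loss of function library and 3 controls, so its controls alone met the filter. It lost its call without control replicate 1 (0.119), loss of function replicate 2 (0.105) or loss of function replicate 3 (0.0702). Of the 3 genes named MPEG1, a pore-forming protein of macrophages, ENSDARG00000043093 had 18, 13 and 22 reads in loss of function and 9, 18 and 12 in controls. Its groups overlapped, and its log2 change of 0.53 (95% interval -0.21 to 1.27) did not pass (limma adjusted p = 0.238). The copy ENSDARG00000055290 had 0, 6 and 5 reads in loss of function and 20, 10 and 15 in controls, too few for the filter. The scavenger receptor gene marco had 1, 1 and 0 reads in loss of function and 3, 5 and 1 in controls. The complement gene c1qa had 90.8 ± 10.7 in loss of function and 86.8 ± 17.5 in controls (SD, n = 3 each; 0.08, 95% interval -0.28 to 0.43), and did not pass. The summed macrophage list lay between 362 and 411 normalized counts in loss of function and between 383 and 460 in controls, so the groups overlapped. The largest values in that sum were those of c1qa and SLC7A7 (95.3 in loss of function and 78.3 in controls), and neither gene passed. The sum therefore says little about the less abundant genes of the list.

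The NADPH oxidase makes the oxidative burst of phagocytes. Of its 5 genes, 1 fell and 4 did not pass, with a median log2 change of -0.05, and 2 fell after scaling to a common total. Of all genes tested 20.0% fell, and 32.9% after that scaling. The organizer subunit gene NCF1 had 17.0, 16.8 and 19.0 normalized counts in loss of function and 43.2, 39.5 and 24.4 in controls (log2 change -0.94, SE 0.27, limma adjusted p = 0.00890). Without control replicate 1 its adjusted p was 0.0543. The catalytic subunit gene cybb had 24.9, 47.5 and 41.3 in loss of function and 62.6, 64.1 and 43.6 in controls. Its change of -0.60 did not pass (limma adjusted p = 0.0562), and passed without control replicate 3 (0.0181), without loss of function replicate 2 (0.0298) and after scaling to a common total (0.0317). Its membrane partner cyba had 201 ± 16.9 in loss of function and 208 ± 18.5 in controls (SD, n = 3 each; -0.05, 95% interval -0.28 to 0.18).

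The gene cebpa encodes C/EBP alpha, a transcription factor that directs progenitors to the myeloid line and is also used in liver. It had 487, 467 and 488 normalized counts in loss of function libraries, against 383, 365 and 389.7 in controls. The loss of function libraries were all higher, at 481 ± 11.7 against 379 ± 12.8 in controls (SD, n = 3 each), 1.27-fold. The log2 change was 0.34 (SE 0.07, limma adjusted p = 0.00146), and 0.20 after scaling to a common total (limma adjusted p = 0.0373).

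Of its relatives, CEBPB and CEBPD fell. CEBPB, which acts in macrophages and in inflammation, had 1206, 1082 and 1159 normalized counts in loss of function and 1291, 1525 and 1849 in controls. Control replicate 3 was the highest, as for mmp9 and mmp13a, and the log2 change was -0.42 (SE 0.09, limma adjusted p = 0.00150). Without the intensity trend the adjusted p was 0.0603. CEBPD fell to 1013 ± 25.2 in loss of function, against 1209 ± 76.2 in controls (SD, n = 3 each; -0.25, limma adjusted p = 0.00315). The gene cebpg had 1696 ± 75.5 in loss of function and 1729 ± 65.2 in controls (-0.03, 95% interval -0.14 to 0.09), and did not pass, except after scaling to a common total (-0.17, limma adjusted p = 0.0169). Log2 cebpa minus log2 CEBPB was -1.25 ± 0.05 in loss of function and -2.02 ± 0.25 in controls (SD, n = 3 each), a difference of 0.76 (exact two-sided permutation p = 0.1, adjusted p = 0.1).

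In all, 10 myeloid transcription factor genes were tested, of which 3 rose, 3 fell and 4 did not pass, with a median log2 change of -0.18. Scaling to a common total gave 2 higher and 4 lower. For all genes tested the shares were 21.9% higher and 20.0% lower, or 11.3% and 32.9% with that scaling. GFI1B, a transcriptional repressor used in the erythroid and platelet lines, had 121, 105 and 111 normalized counts in loss of function and 30.0, 9.87 and 37.6 in controls (log2 change 2.27, limma adjusted p = 3.69e-05). Control replicate 2, with the lowest erythroid sum, was again the lowest, as it also was for cebpa and MYB. The progenitor gene MYB rose to 522 ± 20.0 in loss of function, against 417 ± 41.2 in controls (SD, n = 3 each; 0.33, limma adjusted p = 0.00418), but not after scaling to a common total (0.19, limma adjusted p = 0.0734). Of the genes of PU.1, the regulator that commits cells to the myeloid line, spi1a had 10, 15 and 11 reads in loss of function and 24, 23 and 20 in controls (-0.76, limma adjusted p = 0.0448). Its call was lost in 5 of the 6 fits that left out a library, with adjusted p-values up to 0.144. The more abundant copy, SPI1 (ENSDARG00000000767), had 121 ± 6.71 in loss of function and 131 ± 19.2 in controls (SD, n = 3 each; -0.11, 95% interval -0.39 to 0.18), and did not pass (limma adjusted p = 0.555).

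**Figure D3:**
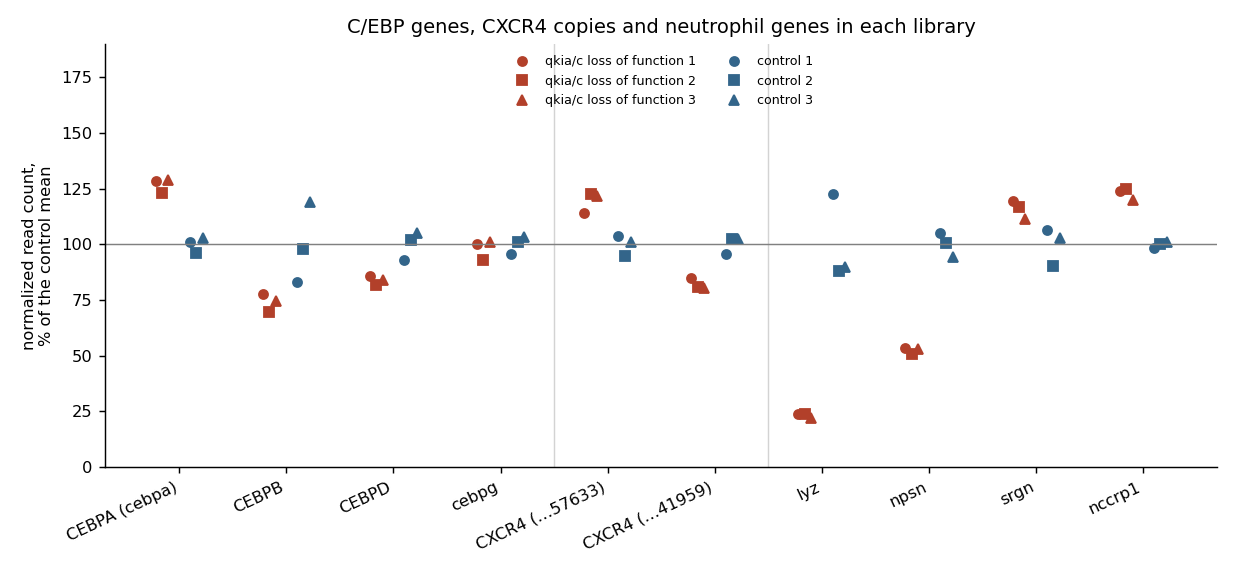
Normalized read count of C/EBP genes, the CXCR4 copies and neutrophil genes in each library, as a percentage of that gene's control mean (linear axis from 0, the line at 100% is the control mean). In loss of function libraries CEBPA and CXCR4 (ENSDARG00000057633) lie above the controls, CEBPB, CEBPD and CXCR4 (ENSDARG00000041959) below, and lyz lies further below than npsn.

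CXCR4 is the receptor of the chemokine CXCL12 and guides migrating cells, including leukocytes and endothelium. The member ENSDARG00000057633 had 736, 789 and 784 normalized counts in loss of function libraries and 669.8, 611 and 653 in controls. The lowest loss of function library was above the highest control, at means of 769.6 ± 29.3 and 644 ± 30.4 (loss of function and control, SD, n = 3 each), 1.19-fold. The log2 change was 0.26 (SE 0.07, limma adjusted p = 0.00508), and 0.12 after scaling to a common total, where it did not pass (limma adjusted p = 0.186). The other gene named CXCR4, ENSDARG00000041959, had 457, 436 and 434 in loss of function and 515, 552 and 551 in controls. It fell by 0.29 on the log2 scale (SE 0.07, limma adjusted p = 0.00422). Log2 of the first minus log2 of the second was 0.80 ± 0.10 in loss of function and 0.26 ± 0.12 in controls (SD, n = 3 each). That difference of 0.54 is nearly independent of the scaling of a library, and its exact two-sided permutation p was 0.1 (adjusted p = 0.1).

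Of 9 chemokine, cytokine and receptor genes tested, 1 was higher (the CXCR4 member), 3 were lower and 5 did not pass, with a median log2 change of -0.21. With a common total 0 were higher and 4 lower. Over all genes tested 21.9% were higher and 20.0% lower, or 11.3% and 32.9% with a common total. The scavenger receptor of CXCL12, ACKR3 (ENSDARG00000062478), fell to 239 ± 9.68 in loss of function, against 323 ± 11.2 in controls (SD, n = 3 each; log2 change -0.43, limma adjusted p = 8.32e-04). Its more abundant copy, ACKR3 (ENSDARG00000058179), had a log2 change of 0.04 (95% interval -0.07 to 0.15). The macrophage growth factor gene csf1a fell to 311 ± 23.5, against 387 ± 5.65 in controls (-0.32, limma adjusted p = 0.00604). The ligand gene CXCL12 had 2213 ± 23.8 in loss of function and 2051 ± 61.2 in controls (0.11), which did not pass (limma adjusted p = 0.0870). For cxcl12b the log2 change was 0.09 (limma adjusted p = 0.285). Without control replicate 3 both passed, CXCL12 at 0.13 (limma adjusted p = 0.0414) and cxcl12b at 0.20 (limma adjusted p = 0.00140).

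Endothelial genes, measured in the same libraries because CXCR4 is used there too, gave 3 of 12 higher, 4 lower and 5 not passing. Their median log2 change was 0.11, and 2 were higher and 4 lower after scaling to a common total. Among all genes tested 21.9% were higher and 20.0% lower, or 11.3% and 32.9% after that scaling. The junction gene cdh5 (1.31) and CLDN5 (ENSDARG00000014059, 0.62) rose, while tek (-0.69), flt1 (-0.61) and FLI1 (-0.27) fell. The other gene named CLDN5, ENSDARG00000043716, also fell (-0.26, limma adjusted p = 0.00665), at 513 ± 11.0 in loss of function and 616 ± 37.3 in controls. The third that rose, she (0.19), did not pass after scaling to a common total (0.05), nor without loss of function replicate 1 (0.0643) or replicate 3 (0.0577). The summed endothelial list was 5436 to 5641 in loss of function libraries and 5299.8 to 5546 in controls. It overlapped on these size factors, and was not rescaled to a common total.

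Of 20 metalloproteinase and inhibitor genes tested, 3 were lower (mmp13a, mmp9 and mmp25b), 3 were higher and 14 did not pass, with a median log2 change of 0.06. With a common total 2 were higher and 3 lower. The shares over all genes tested were 21.9% higher and 20.0% lower, or 11.3% and 32.9% with a common total. As above, mmp13a entered the test only through its controls. The membrane-bound mmp25b, whose mammalian counterpart is a leukocyte protease, fell to 27.7 ± 2.83 normalized counts in loss of function, against 54.7 ± 4.75 in controls (SD, n = 3 each; log2 change -0.96, limma adjusted p = 0.00113). MMP2, the gelatinase of connective tissue cells, rose to 4323 ± 71.8, against 3141 ± 208 in controls (0.46, limma adjusted p = 4.18e-06). The inhibitor TIMP2 (ENSDARG00000075261) had 1072, 1128 and 1163 in loss of function and 513, 413 and 589 in controls (1.16, limma adjusted p = 1.06e-07), whereas its copy ENSDARG00000061226 changed by 0.09 on the log2 scale, which missed the threshold (limma adjusted p = 0.326). MMP15 (ENSDARG00000013072) rose (0.39), but not after scaling to a common total (0.25, limma adjusted p = 0.0540). For both genes named MMP14 the log2 change was 0.06, short of the threshold.

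Epidermal genes, given because mmp9 can be made by epithelium, rose in 4 of 14 and fell in 1, with a median log2 change of 0.08. With a common total 3 rose and 2 fell. For this list and the next, the shares over all genes tested were 21.9% higher and 20.0% lower, or 11.3% and 32.9% with a common total. Their summed normalized count was 1006550 to 1056850 in loss of function libraries and 841166 to 957296 in controls, without overlap on these size factors. Most of it came from krt4, at 755180 ± 22138 in loss of function and 647665 ± 36481 in controls (SD, n = 3 each). The change of krt4 did not pass (limma adjusted p = 0.0877). The total over all genes was also higher in loss of function (4.33e+07 to 4.47e+07) than in controls (3.89e+07 to 4.07e+07). The summed lists were not rescaled to a common total. The part of epithelium in the mmp9 values was not tested. The keratin gene krt8 (0.46), cldni (0.39), AGR2 (0.89) and icn (0.23) rose, and the claudin gene cldnb fell (-0.57). For icn the adjusted p was 0.156 after scaling to a common total and 0.0579 without the intensity trend. Genes of the yolk syncytial layer and liver, where cebpa is also used, gave 5 of 16 higher, 3 lower and 8 not passing (median 0.17), and 3 higher and 3 lower with a common total. The genes fabp10a (2.55), apobb.1 (0.29) and apoeb (0.33) rose, although apoeb did not pass without the intensity trend (0.0663). Both genes named FABP1 (-0.67 for ENSDARG00000019357 and -0.44 for ENSDARG00000059227) and apobb.2 (-0.55) fell. Leaving out 1 library ended the call of the second FABP1 in 3 of 6 fits, with adjusted p-values up to 0.116, and that of apobb.2 in 5 of 6, up to 0.183. The summed normalized count of this list was 32209 to 33388 in loss of function libraries and 25382 to 31911 in controls. These did not overlap on these size factors, and were not rescaled to a common total. Most of the sum came from apoeb and apoc1. The part of these tissues in the cebpa values was not tested.

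**Figure D4:**
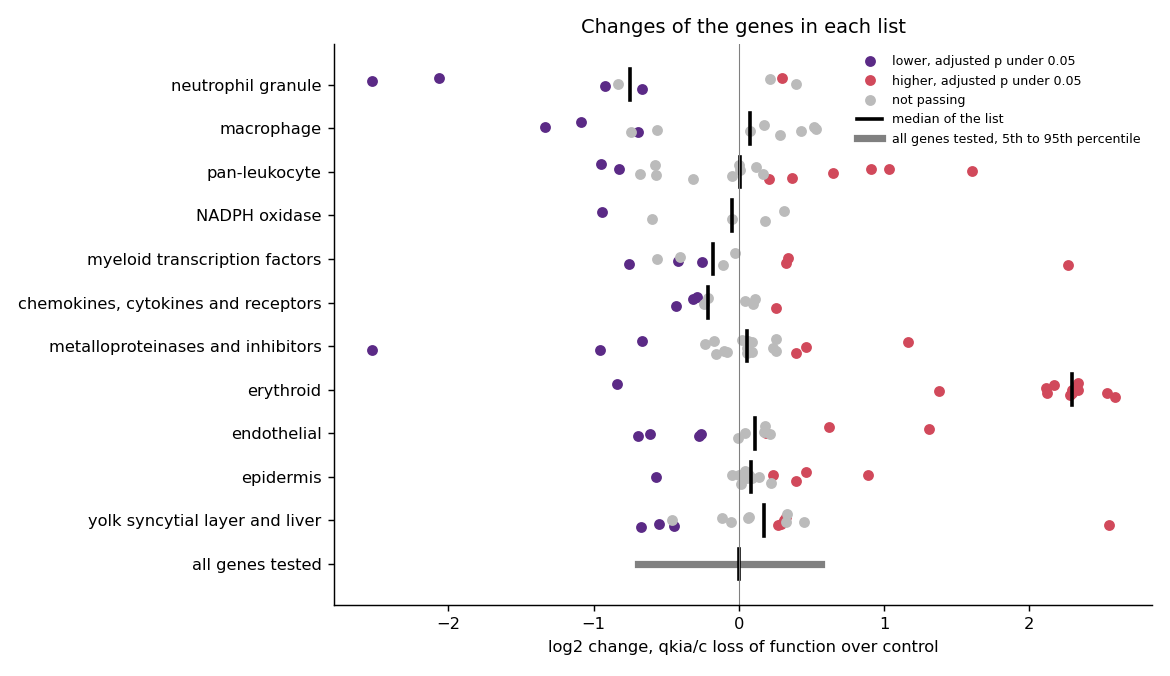
Log2 change (loss of function over control) of every tested gene in each list, coloured by its limma call, with the median of the list as a black line and, in the last row, the 5th to 95th percentile of all genes tested in grey. The erythroid list sits far to the right with a median of 2.30. The neutrophil list has a median of -0.75 set by genes spread from -2.53 to 0.40, and of 0.21 without its 3 members lyz, mmp13a and mmp9. The other leukocyte lists have medians between -0.21 and 0.08.

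Genes whose profile over the 6 libraries was most like that of a member were found by the root mean square difference of centred log2 values, among 12499 genes that had a symbol and averaged at least 50. With 2 groups set apart, this measure mostly ranks genes by the size of their group difference. For lyz the nearest were hspb9l (0.160), myoz3a (0.169) and ANKRD1 (ENSDARG00000075263, 0.169), and for mmp13a they were hspb9 (0.393), hspb9l (0.483) and EGR3 (0.515). For coro1a they were aqp7 (0.0449), PLXNC1 (0.0486) and acd (0.0575), and for the CXCR4 member zgc:101583 (0.0259), itga6b (0.0261) and AGO2 (0.0271).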

How the data were processed

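The deposited gene values are a normalized signal, in the authors' tables each gene's read count over a size factor of its library, which was read from the values: 100% of them were whole reads to within 0.001 of a read once multiplied by that factor. The submitters' processing notes name build Zv9, DESeq 1.8.3, HTSeq 0.5.3, SAMtools, STAR 2.4.0j and Bowtie 0.12.9, with no order or role. No source used here tells how reads that fit several copies were counted. Exon tables were not used, since exons were not paired with genes.

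Symbols came from a table of gene IDs, which named 18555 of 24789 genes. No coordinates are given.

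Genes that reached 10 in 3 or more libraries were tested with limma 3.58.1 (R 4.3.3, eBayes with an intensity trend) on log2(value + 1). Log2 changes are on that scale, which understates those of low genes. P-values are two-sided, with Benjamini-Hochberg adjustment over all 18917 genes tested. Alternatives were pseudocounts of 0.5 and 5, other filters, other scalings, no trend, the replicate number as a block, each library left out, and edgeR 4.0.16 and DESeq2 1.42.0 on recovered reads. In simulated libraries of 18680 genes, limma recovered 73.1% of 67 genes changed 1.5-fold, 88.1% of 67 changed 2-fold and 97.0% of 66 changed 4-fold. Among its 184 calls 12 were false. A far smaller share of genes was changed there than was called in the data, so these rates need not hold for the data.

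The members and the 11 lists were chosen with earlier results of these data known. Within lists, genes named were all those past the threshold where 5 or fewer, otherwise the 3 with the smallest adjusted p in each direction. Other genes were named after their values were seen. A general leukocyte gene that this rule names is not reported here.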

Additional observations from a re-analysis of the deposited data

How the results depend on the processing

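All 7 members kept their direction under all alternatives in which they were tested, and mmp13a was not tested under the filter on a mean of at least 50. Scaling each library to a common total moved the calls over all genes to 2147 higher and 6225 lower, against 4143 and 3792. Of the calls, 25.6% were then higher, against 52.2%. In that setting rac2 (0.070) and the CXCR4 member (0.12) did not pass, which left 1 member higher, cebpa, and the median of all genes moved to -0.14 by the scaling itself. With a pseudocount of 5, log2 mmp13a minus log2 mmp9 differed by -1.32 in place of -1.87, since a larger pseudocount shrinks low values.

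Among the other results named above, no direction of a called gene was reversed, and calls changed by a left-out library or a common total are given beside the genes of the lists. Under a common total 3 genes nearest to the CXCR4 member, zgc:101583, itga6b and AGO2, also missed the threshold (0.339, 0.0662 and 0.0717). Quantile normalization gave adjusted p-values of 0.0716 for SYK, 0.0783 for spi1a, 0.0625 for FABP1 (ENSDARG00000059227) and 0.106 for apobb.2. DESeq2 gave adjusted p-values of 0.0750 for havcr1, 0.139 for SYK, 0.160 for spi1a, 0.0674 for zgc:101583, 0.0621 for the same FABP1 and 0.0867 for apobb.2, and it called 3 yolk syncytial layer and liver genes higher and 1 lower, against 5 and 3. Without the filter SYK (0.0588), spi1a (0.0656) and apobb.2 (0.0729) missed the threshold, and without the intensity trend havcr1 (0.0747), SYK (0.0524) and apobb.2 (0.0791) did. The call of zgc:101583 was lost in 4 of the 6 fits that left out a library, with adjusted p-values up to 0.117. The replicate number as a block called 4055 genes higher and 3759 lower. It moved the adjusted p of spi1a to 0.0607 and that of cybb to 0.0306, and the 7 members kept their calls. Libraries with the same number did not deviate together across all genes (r -0.07, 0.01 and -0.02). This correlation cannot exclude pairing that acts on some genes only. With the block the limma adjusted p was 1.12e-07 for mmp9 and 7.71e-08 for mmp13a, lower than without it. Among the 7 members it was higher than without the block only for rac2 (0.0101) and the CXCR4 member (0.00559). Genes with fewer than about 10 reads, such as marco, are limited by depth.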

Other observations

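The 3 genes nearest in profile to mmp9, looked up after its values were seen, were cldnb (root mean square difference 0.12), irf9 (0.13) and PTGS2 (0.14). They were picked for that likeness over all 6 libraries. Their lower values, their small p-values and a high control replicate 3 therefore follow from the choice. As for mmp9, control replicate 3 was the highest, at 3901 for cldnb, 273 for irf9 and 768 for PTGS2. PTGS2 (ENSDARG00000010276), the inducible cyclooxygenase, had 339 ± 21.8 normalized counts in loss of function and 604 ± 143 in controls (SD, n = 3 each), with a log2 change of -0.81 (limma adjusted p = 4.61e-05). The interferon factor gene irf9 had 135 ± 2.43 in loss of function and 233 ± 36.1 in controls (-0.77, limma adjusted p = 8.13e-05). For cldnb the means were 2166 ± 16.3 in loss of function and 3256 ± 574 in controls (-0.57).

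Several leukocyte genes under the filter had few reads in each library. MFAP4 (ENSDARG00000038681) had 1, 0 and 0 reads in loss of function and 5, 9 and 5 in controls. Its copy ENSDARG00000089667 had 1, 3 and 6 in loss of function and 8, 12 and 7 in controls. Others were not lower. CXCR3 (ENSDARG00000007358) had 12, 3 and 4 in loss of function and 6, 5 and 6 in controls, and c1qb 6, 5 and 6 against 7, 6 and 3. MFAP4 (ENSDARG00000038683) had 1, 0 and 2 against 0, 0 and 1. MPEG1 (ENSDARG00000078569) had 1, 0 and 0 reads in each group. The adaptor gene tyrobp had 1, 3 and 2 reads in loss of function and 4, 7 and 4 in controls. The cytokine gene tnfa had 0, 0 and 1 reads in loss of function and 0 in all 3 controls.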
